A study of Mus musculus with 12 samples.

Results

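Dusp1, Dusp2, Dusp4, Dusp5, Dusp6, Dusp10 and Dusp16 encode dual-specificity phosphatases that switch off mitogen-activated protein (MAP) kinases. They were followed over genotype and curdlan in mouse dendritic cells. The genes were chosen by symbol, as probe sets whose array annotation gives that symbol and no other gene, and all 7 were found, each with 1 probe set, among 19937 genes. Each of 12 samples was read on its own Affymetrix Mouse Gene 1.0 ST array, 3 in each of 4 groups. The groups were IL-2 knockout cells given curdlan for 6 h, IL-2 knockout cells left untreated, wild-type cells given curdlan for 6 h and wild-type cells left untreated. They were bone marrow cultures kept 7 days with GM-CSF (200 ng/ml) and enriched on CD11c beads, with a stated purity above 95%. The strain is given as B6.129P2-Il2tm1Hor/J, which has a disrupted Il2 gene, for all 12 samples, those called wild type included, and the groups rest on the genotype labels. Nothing says that the samples came from separate mice, so the spread behind each p-value is that between these samples and may be technical. Values are log2 RMA values, and a difference of 1 is a doubling.

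MAP kinases (ERK, JNK and p38) are activated when a threonine and a tyrosine in their activation loop are both phosphorylated, and these phosphatases remove both phosphates. Several of them are themselves transcribed after MAP kinase activation, so they form a negative feedback loop. Curdlan is a beta-glucan particle that binds Dectin-1, a receptor that signals through Syk to NF-kB and MAP kinases, and in myeloid cells Dusp1 is known for limiting cytokine production through p38 and JNK. Dusp1, Dusp2, Dusp4 and Dusp5 proteins are found in the nucleus, and Dusp5 acts on ERK. Dusp6 is a cytoplasmic phosphatase of ERK, and Dusp10 and Dusp16 act on JNK and p38.

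The disrupted gene was read first. Il2 gave 5.87, 5.80 and 5.63 in knockout cells with curdlan, against 7.80, 7.22 and 6.74 in wild-type cells with curdlan, and the knockout arrays were lower without overlap (log2 difference -1.48 ± 0.20, SE, limma adjusted p = 0.0114). Il2 gave 6.04, 5.88 and 5.77 in untreated knockout cells, against 5.56, 5.37 and 5.53 in untreated wild-type cells (0.41 ± 0.20, adjusted p = 0.524). The untreated knockout arrays were higher without overlap. Wild-type curdlan-treated arrays 1 and 2 alone exceeded the median gene mean of 6.96, and the position of the probes relative to the disrupted part of Il2 is not given here. Array medians lay between 6.59 and 6.64, and 0 pairs of arrays were identical. Of the 7 dendritic cell markers, Itgax, Cd74 and H2-Ab1 had group means between 12.91 and 13.27, and 0 of 7 had a mean over all arrays below the lower quartile of gene means (5.38). The 5 macrophage markers measured were high too, with 0 of 5 below that quartile, and their average per array lay between 11.93 and 12.24. Among the T cell markers 3 of 5 measured lay below it, among the NK cell markers 4 of 5, among the B cell markers 2 of 4, among the mast cell and basophil markers 4 of 5, among the neutrophil markers 2 of 7 and among the stroma markers 1 of 6. Each of the 3 lists of NK cell, mast cell and basophil, and stroma markers had 1 gene called higher with curdlan in knockout cells and 0 in wild-type cells. The neutrophil, T cell and B cell lists had 0 in either genotype. Over all genes, 9.29% were called higher with curdlan in knockout cells and 7.27% in wild-type cells.

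The genes lie on 7 different chromosomes. On the RefSeq assembly GRCm38.p6, Dusp1 lies on chromosome 17 (26505591 to 26508472), Dusp2 on chromosome 2 (127336159 to 127338377) and Dusp4 on chromosome 8 (34807610 to 34819894). Dusp5 lies on chromosome 19 (53529145 to 53541809) and Dusp6 on chromosome 10 (99263231 to 99267489). Dusp10 lies on chromosome 1 (184034381 to 184075636) and Dusp16 on chromosome 6 (134715468 to 134807063). Promoter windows of 300 bases, 250 before and 50 after a transcript start, were matched for 6 of the 7 genes in a RefSeq table of GRCm38.p6, and Dusp4 was not matched. They were searched on both strands for the cAMP response element core TGACGT, the AP-1 site TGANTCA, an NF-kB pattern (GGGA, any 4 bases, then CC), an interferon-type pattern (GAAA, any 2 bases, then GAAA), the ETS pattern CCGGAAG and the CArG box, which binds serum response factor. The windows of Dusp1, Dusp5 and Dusp6 are shown because Dusp1 had the largest rise with curdlan in wild-type cells, Dusp5 was the gene that differed by genotype in both treatments, and Dusp6 did not rise. Capitals mark every motif match.
Dusp1, chr17:26508423-26508722, minus strand: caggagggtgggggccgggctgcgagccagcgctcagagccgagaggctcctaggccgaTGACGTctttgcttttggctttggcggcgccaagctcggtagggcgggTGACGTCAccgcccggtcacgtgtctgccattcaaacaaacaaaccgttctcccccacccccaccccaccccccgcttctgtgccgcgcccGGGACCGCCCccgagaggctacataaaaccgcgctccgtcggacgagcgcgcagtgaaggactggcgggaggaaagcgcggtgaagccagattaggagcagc
Dusp5, chr19:53528895-53529194, plus strand: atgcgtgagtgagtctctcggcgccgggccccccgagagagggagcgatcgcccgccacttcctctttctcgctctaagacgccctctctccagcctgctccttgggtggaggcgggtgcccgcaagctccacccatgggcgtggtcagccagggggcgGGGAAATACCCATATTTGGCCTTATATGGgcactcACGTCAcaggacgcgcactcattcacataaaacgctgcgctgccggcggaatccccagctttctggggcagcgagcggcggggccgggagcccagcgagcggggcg
Dusp6, chr10:99262981-99263280, plus strand: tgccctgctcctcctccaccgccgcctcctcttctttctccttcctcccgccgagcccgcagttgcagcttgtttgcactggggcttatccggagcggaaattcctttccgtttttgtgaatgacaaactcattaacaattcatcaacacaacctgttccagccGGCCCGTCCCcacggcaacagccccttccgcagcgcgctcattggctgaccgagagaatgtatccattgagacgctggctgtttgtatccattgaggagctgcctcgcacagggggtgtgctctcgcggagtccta

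The Dusp1 window held the cAMP response element core at 3 places, counted from the start, -191 to -186, -143 to -138 and, on the other strand and overlapping the last, -141 to -136. The Dusp5 window held 1 such core at -56 to -51 on the other strand and 2 CArG boxes side by side at -82 to -73 and -72 to -63, the first sharing 1 base with a match to the NF-kB pattern at -91 to -82. The Dusp1 window also matched the NF-kB pattern at -52 to -43, and the Dusp6 window held that pattern alone, at -86 to -77 on the other strand. The windows of Dusp2, Dusp10 and Dusp16 matched none of the 6 motifs, and no window of the 6 genes matched the AP-1, interferon-type or ETS pattern. Among all 32851 windows of that table, the cAMP core was present in 7.51%, the NF-kB pattern in 20.7% and the CArG box in 1.63%. A match describes letters in the window and not a site in use. The Dusp16 window belongs to a transcript start inside the gene's outer boundaries.

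Curdlan raised 6 of the 7 phosphatase genes in IL-2 knockout cells, Dusp1, Dusp2, Dusp4, Dusp5, Dusp10 and Dusp16, by log2 differences between 0.35 and 0.72, while Dusp6 gave a difference of -0.29 that did not pass the test. In wild-type cells it raised Dusp1, Dusp4, Dusp5, Dusp10 and Dusp16 by 0.42 to 0.90, and Dusp2 and Dusp6 did not pass. The test was limma's two-sided moderated test over all 19937 genes with Benjamini-Hochberg adjustment and a threshold of 0.05. Over all genes, 9.29% were called higher with curdlan in knockout cells (22.5% in either direction) and 7.27% in wild-type cells (19.6% in either direction). The median difference of the 7 genes was 0.42 in knockout cells, where that of all genes was 0.04, and 0.49 in wild-type cells, where that of all genes was 0.02. The arrays of the 2 treatments did not overlap in 6 of the 7 genes in each genotype, all higher with curdlan, beside 19.4% of all genes in knockout cells and 17.0% in wild-type cells. In such bulk samples, a change in the share of a cell type and a change in RNA per cell cannot be told apart. Some of the dendritic cell markers moved with curdlan as well. In knockout cells 3 of 7 were called higher (Flt3, Zbtb46 and Ccr7), and the list's average per array lay at 10.86 to 10.97 with curdlan and 10.35 to 10.67 untreated. In wild-type cells 2 of 7 were called higher (Zbtb46 and Ccr7), and the average lay at 11.13 to 11.17 with curdlan and 10.79 to 10.95 untreated. Itgax, Cd74 and H2-Ab1 had slightly lower means with curdlan in both genotypes, and none of them was called. The median difference of the dendritic cell list was 0.25 in knockout and -0.002 in wild-type cells. Macrophage markers were called higher in 2 of 5 in each genotype (Mertk and Fcgr1), with averages in knockout cells of 12.17 to 12.24 with curdlan and 12.06 to 12.17 untreated, and in wild-type cells of 12.06 to 12.17 with curdlan and 11.93 to 12.03 untreated. Adgre1, Csf1r and Cd68 had lower means with curdlan in both genotypes, and none of them was called. The median difference of the macrophage list was -0.07 in knockout and -0.02 in wild-type cells. The part of these markers in the phosphatase results was not tested.

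**Figure D1:**
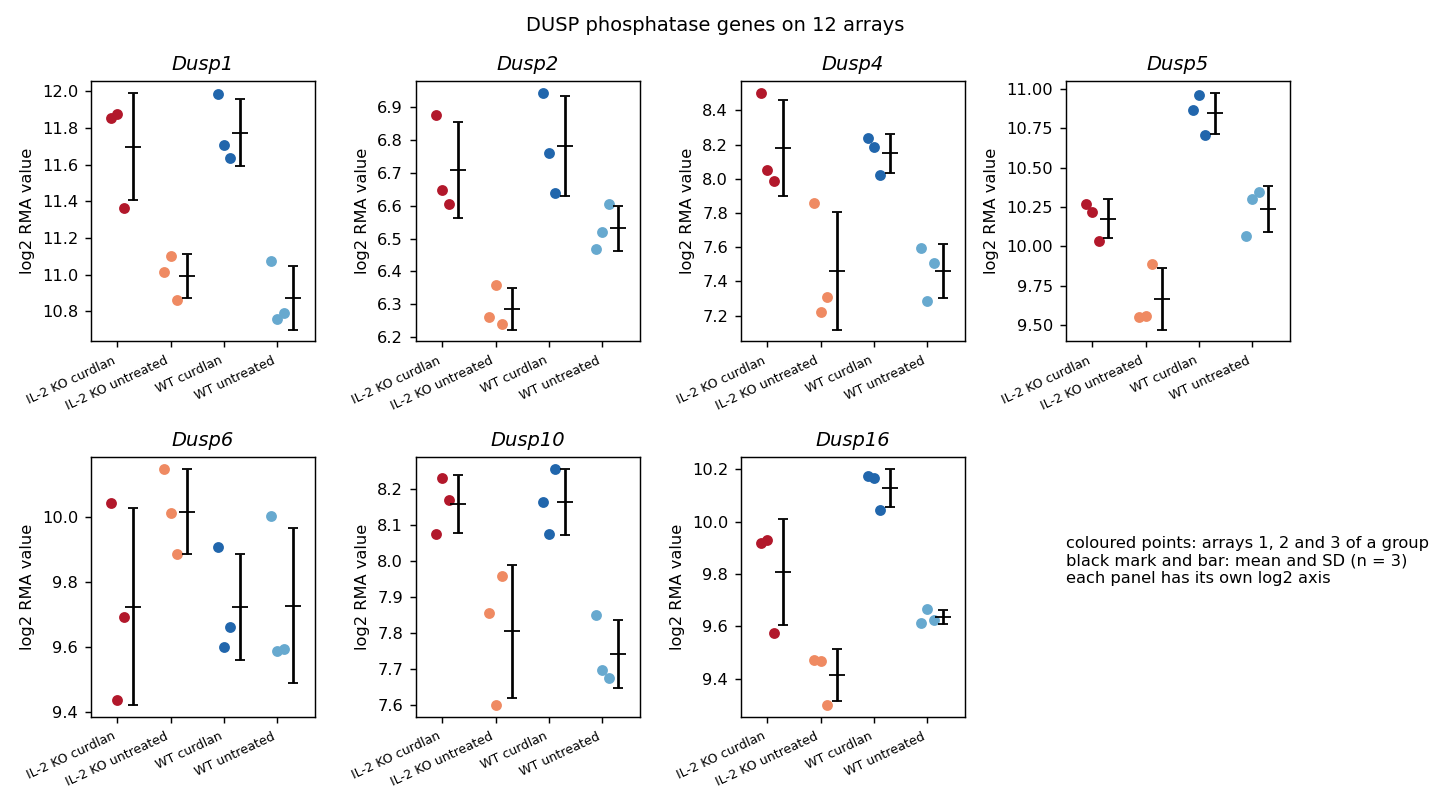
Log2 RMA values (vertical axes, a separate scale per panel) of the 7 phosphatase genes in the 4 groups, with arrays 1, 2 and 3 as coloured points and the mean and SD (n = 3) in black. Dusp1 and Dusp4 separate by curdlan in both genotypes, Dusp5 separates by curdlan and by genotype, and Dusp6 overlaps in every neighbouring pair of groups.

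Dusp1, the nuclear phosphatase also called MKP-1, gave 11.86, 11.88 and 11.36 in knockout cells with curdlan, against 11.01, 11.10 and 10.86 untreated. In wild-type cells it gave 11.98, 11.70 and 11.63 with curdlan, against 11.07, 10.76 and 10.79 untreated. Every curdlan-treated array lay above every untreated array of its genotype. The rise was 1.63-fold in knockout cells (0.71 ± 0.14, SE, adjusted p = 0.00631) and 1.87-fold in wild-type cells (0.90 ± 0.14, adjusted p = 0.00151). The treated and the untreated array of 1 genotype with the same number are called an array pair here, although the labels do not say what they share. Within array pairs the difference was 0.84, 0.78 and 0.50 in knockout cells and 0.91, 0.95 and 0.84 in wild-type cells, so it was positive in all 6. With curdlan the mean was 11.70 ± 0.29 in knockout and 11.77 ± 0.18 in wild-type cells (SD, n = 3 each), and untreated it was 10.99 ± 0.12 in knockout and 10.87 ± 0.17 in wild-type cells. Each of these pairs overlapped, and both treated groups lay above both untreated groups. The knockout call was lost without knockout array pair 1 (adjusted p = 0.0768), and the wild-type call held in all 27 alternatives.

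Dusp2, a nuclear phosphatase first described in activated lymphocytes, was the dimmest of the genes against the rest of the array, with a mean at the 45.3 percentile of all gene means. It gave 6.88, 6.65 and 6.60 in knockout cells with curdlan, against 6.26, 6.36 and 6.24 untreated, and 6.94, 6.76 and 6.64 in wild-type cells with curdlan, against 6.47, 6.52 and 6.60 untreated. The knockout groups were well apart, while in wild-type cells the lowest curdlan-treated and the highest untreated array lay next to each other. Dusp2 rose 1.34-fold in knockout cells (0.42 ± 0.09, SE, adjusted p = 0.00732). The wild-type difference of 0.25 ± 0.09 did not pass (adjusted p = 0.0712). Knockout array pairs gave 0.62, 0.29 and 0.37, and wild-type array pairs 0.48, 0.24 and 0.03. The 3 highest-ranking groups, wild type with curdlan, knockout with curdlan and untreated wild type, overlapped each with the next, and untreated knockout cells lay below them without overlap. The knockout call was lost without knockout array pair 1 (0.0898). The wild-type difference passed with array pair as a random replicate block (0.041), with arrays centred on their median (0.0486), without knockout curdlan-treated array 1 (0.0473) and without wild-type curdlan-treated array 3 (0.0368).

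Dusp4, the nuclear phosphatase MKP-2, gave 8.50, 8.05 and 7.99 in knockout cells with curdlan, against 7.86, 7.22 and 7.31 untreated. In wild-type cells it gave 8.24, 8.19 and 8.02 with curdlan, against 7.59, 7.28 and 7.51 untreated. Array 1 was the highest in each of the 4 groups, and curdlan-treated and untreated arrays did not overlap in either genotype. Dusp4 rose 1.64-fold in knockout cells (0.72 ± 0.17, SE, adjusted p = 0.013) and 1.61-fold in wild-type cells (0.69 ± 0.17, adjusted p = 0.0154). The treated groups of both genotypes overlapped, with means of 8.18 ± 0.28 in knockout and 8.15 ± 0.11 in wild-type cells (SD, n = 3), and so did the untreated groups, both with means of 7.46. The knockout call was lost without knockout curdlan-treated array 1 (0.0509), untreated array 3 (0.0504) or array pair 2 (0.0594). The wild-type call did not hold without treated wild-type array 1 (0.0565), untreated array 2 (0.0628) or array pairs 1 (0.0807), 2 (0.133) or 3 (0.0546).

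Dusp5, the nuclear phosphatase specific for ERK, gave 10.27, 10.22 and 10.04 in knockout cells with curdlan, against 9.55, 9.56 and 9.89 untreated. In wild-type cells it gave 10.87, 10.96 and 10.70 with curdlan, against 10.07, 10.30 and 10.34 untreated. Curdlan-treated arrays lay above untreated arrays in both genotypes, and curdlan-treated knockout arrays lay within or below the range of untreated wild-type arrays. Dusp5 rose 1.42-fold with curdlan in knockout cells (0.51 ± 0.11, SE, adjusted p = 0.00875) and 1.52-fold in wild-type cells (0.61 ± 0.11, adjusted p = 0.00318). Its differences within array pairs were 0.72, 0.66 and 0.15 in knockout cells and 0.80, 0.66 and 0.36 in wild-type cells, positive in all 6 and smallest in array pair 3 of each genotype. The mean was 10.18 ± 0.12 in knockout cells with curdlan, 9.67 ± 0.19 in untreated knockout cells, 10.84 ± 0.13 in wild-type cells with curdlan and 10.24 ± 0.15 in untreated wild-type cells (SD, n = 3 each). Wild-type cells with curdlan thus ranked highest and untreated knockout cells lowest, and the middle groups overlapped. The knockout call was lost without knockout array pairs 1 (0.12) or 2 (0.0723).

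Dusp6, the cytoplasmic ERK phosphatase MKP-3, gave 10.04, 9.44 and 9.69 in knockout cells with curdlan, against 10.15, 10.01 and 9.89 untreated, and 9.91, 9.60 and 9.66 in wild-type cells with curdlan, against 10.00, 9.59 and 9.59 untreated. The groups overlapped in both genotypes, and array 1 was the highest in each of the 4 groups. The difference with curdlan was -0.29 ± 0.16 in knockout cells (SE, 95% interval -0.63 to 0.05, adjusted p = 0.184) and 0.00 ± 0.16 in wild-type cells (-0.34 to 0.34, adjusted p = 0.989). Knockout array pairs gave -0.11, -0.57 and -0.20, all below 0, and wild-type array pairs gave -0.09, 0.01 and 0.07. With array pair as a fixed replicate block, which compares the arrays within each pair, the knockout difference passed as lower (adjusted p = 0.0336). With the replicate number as the block it passed too (0.0245), and with array pair as a random block it did not (0.091).

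Dusp10 (MKP-5) and Dusp16 (MKP-7) act on JNK and p38, and both rose in both genotypes. Dusp10 gave 8.07, 8.23 and 8.17 in knockout cells with curdlan, against 7.85, 7.60 and 7.96 untreated, and 8.16, 8.07 and 8.26 in wild-type cells with curdlan, against 7.85, 7.70 and 7.67 untreated. Its treated arrays lay above its untreated arrays in both genotypes. It rose 1.28-fold in knockout cells (0.35 ± 0.09, SE, adjusted p = 0.0191) and 1.34-fold in wild-type cells (0.42 ± 0.09, adjusted p = 0.00774). Its treated groups overlapped between genotypes, as did its untreated groups. The knockout call ended in a fit of the 2 groups alone (0.0537), and without knockout curdlan-treated array 2 (0.078) or array pairs 1 (0.07) or 2 (0.126), the last with a difference of 0.22. The wild-type call was lost without wild-type array pair 3 (0.0888).

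Dusp16 gave 9.92, 9.93 and 9.57 in knockout cells with curdlan, against 9.47, 9.47 and 9.30 untreated, and 10.18, 10.17 and 10.05 in wild-type cells with curdlan, against 9.61, 9.67 and 9.63 untreated. Treated arrays lay above untreated arrays in both genotypes, and the 3 untreated wild-type arrays were the closest together of any group among these genes (SD 0.03). It rose 1.31-fold in knockout cells (0.39 ± 0.09, SE, adjusted p = 0.0115) and 1.41-fold in wild-type cells (0.49 ± 0.09, adjusted p = 0.00332). The mean was 9.81 ± 0.20 in knockout cells with curdlan, 9.41 ± 0.10 in untreated knockout cells, 10.13 ± 0.07 in wild-type cells with curdlan and 9.64 ± 0.03 in untreated wild-type cells (SD, n = 3 each). Wild-type cells with curdlan ranked highest and untreated knockout cells lowest, as for Dusp5, and the middle groups overlapped. The knockout call ended in a fit of the 2 groups alone (0.0509), and without knockout curdlan-treated array 2 (0.056) or array pairs 1 (0.0908) or 2 (0.0595). The wild-type calls of Dusp5 and Dusp16 held in all 27 alternatives each. Taken by count, 1 of the 7 genes passed in knockout cells without knockout array pair 1 and 2 without knockout array pair 2, and 3 passed in wild-type cells without wild-type array pair 3.

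**Figure D2:**
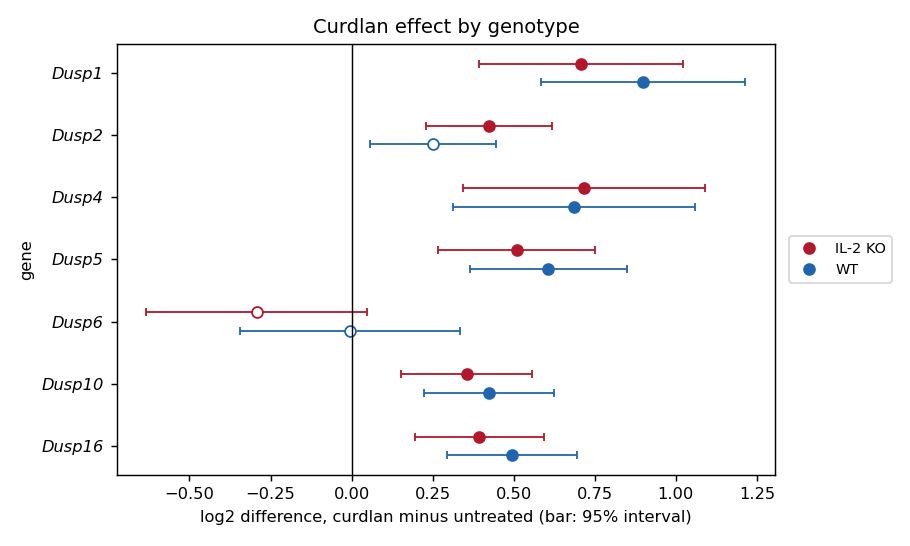
Log2 difference (horizontal axis, curdlan minus untreated) of the 7 phosphatase genes in IL-2 knockout and wild-type cells, with 95% intervals of the fit and filled points for genes past the threshold. Filled points lie between 0.35 and 0.90, and Dusp6 is open in both genotypes.

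By genotype, a single gene of the 7 passed the test in both treatments, and it was Dusp5, which was lower in knockout cells. In curdlan-treated cells the 3 knockout arrays (10.04 to 10.27) lay below the 3 wild-type arrays (10.70 to 10.96), a 1.59-fold lower level in knockout cells (-0.67 ± 0.11, SE, adjusted p = 0.026). In untreated cells the knockout arrays (9.55 to 9.89) lay below the wild-type arrays (10.07 to 10.34), a 1.48-fold lower level in knockout cells (-0.57 ± 0.11, adjusted p = 0.0312). Over all genes, 0.517% were called lower in the knockout with curdlan (0.622% in either direction) and 1.19% untreated (1.42% in either direction). With the replicate number as a fixed replicate block the untreated difference of Dusp5 had an adjusted p of 0.0258, and 699 genes passed in place of 283.

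The size of the Dusp5 difference moved little between alternatives, and its call moved more. The difference lay between -0.74 and -0.60 with curdlan and between -0.68 and -0.51 untreated over 26 alternatives each, and the call was lost in 10 of them in each treatment. With curdlan it ended in a fit of the 2 groups alone (0.0652), without knockout curdlan-treated arrays 1 (0.0616), 2 (0.0852) or 3 (0.0787) or wild-type curdlan-treated array 2 (0.148), and without knockout array pairs 1 (0.0677), 2 (0.121) or 3 (0.0531) or wild-type array pairs 2 (0.168) or 3 (0.0791). Untreated it ended in a fit of the 2 groups alone (0.0954), without knockout untreated arrays 1 (0.122) or 2 (0.121), knockout curdlan-treated array 1 (0.0507) or wild-type untreated arrays 2 (0.153) or 3 (0.117), and without knockout array pairs 1 (0.165) or 2 (0.153) or wild-type array pairs 2 (0.165) or 3 (0.136). The genotype difference averaged over both treatments, added after the data were seen, was -0.62 ± 0.08 for Dusp5 (adjusted p = 0.00148), and it passed in all 25 alternatives, with adjusted p-values up to 0.0152. In that average 3.56% of all genes were called lower (5.04% in either direction).

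The knockout arrays of Dusp16 lay below the wild-type arrays in both treatments, but the difference did not pass in either. It differed by -0.32 ± 0.09 with curdlan (SE, 95% interval -0.52 to -0.12, adjusted p = 0.159) and by -0.22 ± 0.09 untreated (-0.42 to -0.02, adjusted p = 0.384). Averaged over both treatments the difference was -0.27 ± 0.06 (adjusted p = 0.0326), and with array pair as a random replicate block, which allows for likeness within array pairs, the adjusted p was 0.0534. The averaged call of Dusp16 was lost in 12 of 25 alternatives, among them without wild-type array pair 2 (0.215), and its adjusted p-values lay between 0.00654 and 0.215. Leaving out a single array ended it for knockout untreated arrays 1 (0.0519), 2 (0.0515) and 3 (0.0707), wild-type curdlan-treated arrays 1 (0.0575) and 2 (0.0916) and wild-type untreated arrays 2 (0.0906) and 3 (0.0726). So did leaving out knockout array pair 1 (0.0565) or wild-type array pairs 1 (0.0749) or 3 (0.0917). The knockout arrays of Dusp2 lay below the wild-type arrays untreated (-0.25 ± 0.09, adjusted p = 0.295) and overlapped them with curdlan (-0.07 ± 0.09, adjusted p = 0.839). Knockout arrays lay below wild-type arrays without overlap in 2 of the 7 genes with curdlan and in 3 untreated, beside 6.84% and 7.88% of all genes.

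For the other 4 genes the genotype groups overlapped in both treatments, and the intervals bound the size of a difference. With curdlan the 95% interval was -0.39 to 0.24 for Dusp1, -0.34 to 0.41 for Dusp4, -0.34 to 0.34 for Dusp6 and -0.21 to 0.20 for Dusp10. Untreated it was -0.20 to 0.43 for Dusp1, -0.37 to 0.37 for Dusp4, -0.05 to 0.63 for Dusp6 and -0.14 to 0.26 for Dusp10. The median genotype difference of the 7 genes was -0.07 with curdlan and 0.00 untreated, where the medians of all genes were 0.02 with curdlan and 0.01 untreated.

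Among the cell type markers, a single gene was called by genotype within a treatment, and it belonged to the dendritic cell list. Of the 7 dendritic cell markers, Dpp4 (CD26) was called lower in the knockout in both treatments, with 8.57, 9.06 and 8.64 in knockout against 9.57, 10.15 and 10.16 in wild-type cells with curdlan (-1.20, adjusted p = 0.0423), and 8.22, 8.70 and 8.61 in untreated knockout against 9.47, 10.24 and 10.18 in untreated wild-type cells (-1.45, adjusted p = 0.0134). The average of the dendritic cell list lay at 10.86 to 10.97 in knockout and 11.13 to 11.17 in wild-type cells with curdlan, and at 10.35 to 10.67 in untreated knockout and 10.79 to 10.95 in untreated wild-type cells. The median difference of that list, knockout minus wild type, was -0.03 with curdlan and -0.12 untreated. The macrophage list, with 0 of 5 called, lay at 12.17 to 12.24 in knockout and 12.06 to 12.17 in wild-type cells with curdlan, and at 12.06 to 12.17 in untreated knockout and 11.93 to 12.03 in untreated wild-type cells. The mast cell and basophil list, also with 0 of 5 called in either treatment, lay at 4.95 to 4.99 in knockout and 5.04 to 5.13 in wild-type cells with curdlan, and at 4.90 to 4.96 in untreated knockout and 5.11 to 5.13 in untreated wild-type cells. In the average over both treatments, 2 of 7 dendritic cell markers were called lower in the knockout, Dpp4 (-1.33, adjusted p = 0.00132) and Zbtb46 (-0.26, adjusted p = 0.0371), and so were 2 of 5 mast cell and basophil markers, Cpa3 (-0.35, adjusted p = 0.0175) and Kit (-0.54, adjusted p = 0.0394). The remaining dendritic cell markers were not called there, with 0.06 for Itgax, 0.05 for Flt3, 0.01 for H2-Ab1, -0.01 for Cd74 and -0.41 for Ccr7. Nor were the remaining mast cell and basophil markers, with 0.10 for Mcpt8, 0.05 for Ms4a2 and 0.01 for Fcer1a. Cpa3 was dim, with a mean at the 10.3 percentile of all gene means. In that average 3.56% of all genes were called lower, and no array-pair block is given for these marker calls. The part of these markers in the Dusp5 and Dusp16 differences was not tested.

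**Figure D3:**
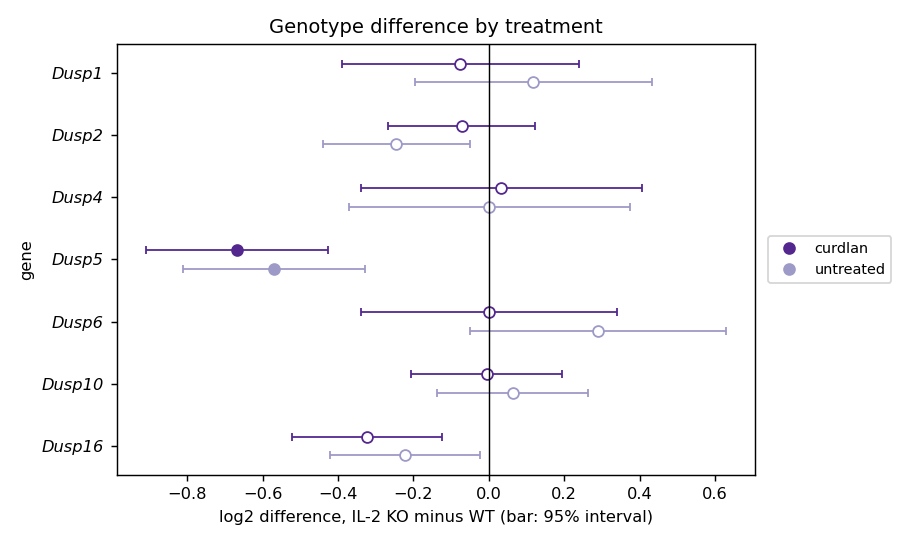
Log2 difference (horizontal axis, IL-2 knockout minus wild type) of the 7 phosphatase genes with curdlan and untreated, with 95% intervals of the fit and filled points for genes past the threshold. Dusp5 alone is filled, at -0.67 with curdlan and -0.57 untreated, and Dusp16 lies below 0 in both treatments.

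The interaction asks whether the curdlan effect differed between genotypes, and none of the 7 genes passed. The curdlan effect in knockout minus that in wild-type cells was -0.19 for Dusp1 (95% interval -0.64 to 0.25), 0.17 for Dusp2 (-0.10 to 0.45), 0.03 for Dusp4 (-0.50 to 0.56) and -0.10 for Dusp5 (-0.44 to 0.24). It was -0.29 for Dusp6 (-0.77 to 0.19), -0.07 for Dusp10 (-0.35 to 0.22) and -0.10 for Dusp16 (-0.38 to 0.18). The adjusted p of each was 1.00, and 0 of the 7 had an unadjusted p under 0.05. Over all 19937 genes limma called 0 interactions (0%), and 552 (2.77%) had an unadjusted p under 0.05. The Dusp2 calls in knockout and not in wild-type cells therefore do not show a difference between the genotypes. Nor does the lack of interaction calls exclude such differences. Il2, the disrupted gene, had curdlan differences of 1.77 in wild-type and -0.13 in knockout cells. Its interaction of -1.89 was not called either (limma adjusted p = 0.357).

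Across the 12 arrays, Dusp1, Dusp2, Dusp4, Dusp5, Dusp10 and Dusp16 ran together, with Pearson's r between 0.52 and 0.88 for every pair, and Dusp6 gave r between -0.51 and -0.02 with each of them. These arrays share the treatment, and with the group means removed the picture was different. Dusp4 and Dusp6 then gave r = 0.69, where both were highest in array 1 of each group, and Dusp1 and Dusp16 gave r = 0.79, while Dusp2 and Dusp10 gave r = -0.59. The genes whose values over the 12 arrays were most like Dusp1 were Socs3 (r = 0.98), Slc25a22 (0.98) and Parp3 (0.98), and those most like Dusp5 were Ppdpf (0.98), Adgrg6 (0.98) and Zfp827 (0.97). Dusp16 was most like Rhof (0.99), Pik3r5 (0.98) and Ebi3 (0.98), and Dusp10 was most like Plk2 (0.96), Rhoc (0.95) and Tax1bp1 (0.95). Dusp4 was most like Nr6a1 (0.96), Pias4 (0.96) and Il1f9 (0.96), and Dusp2 was most like Slc43a1 (0.96), A230083G16Rik (0.95) and Ces4a (0.95). For Dusp6 the likest gene was Map2k2 (0.94), which encodes the ERK kinase MEK2, followed by Tlr13 (0.88) and Sertad2 (0.87). These correlations rest on 12 arrays in 4 groups and describe likeness only.

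The other MAP kinase phosphatase genes did not move one way with curdlan. Of Dusp7, Dusp8 and Dusp9, Dusp8, which acts on JNK and p38, rose in knockout (0.54, adjusted p = 0.00498) and in wild-type cells (0.32, adjusted p = 0.0486), Dusp7, a cytoplasmic ERK phosphatase like Dusp6, fell in both (-0.34 in knockout, adjusted p = 0.0429, and -0.37 in wild-type cells, adjusted p = 0.0361), and Dusp9 did not pass. Over all genes, 22.5% were called with curdlan in either direction in knockout cells and 19.6% in wild-type cells. Of 22 atypical and other dual-specificity phosphatase genes, 4 rose and 5 fell in knockout cells and 3 rose and 5 fell in wild-type cells, with medians of 0.00 in knockout and -0.03 in wild-type cells. The largest fall was in Ssh2, which encodes a slingshot phosphatase of cofilin (-1.14 in knockout, adjusted p = 0.000368, and -1.06 in wild-type cells, adjusted p = 0.000487). The largest rise was in Dusp14 (0.79 in knockout, adjusted p = 0.00476, and 1.02 in wild-type cells, adjusted p = 0.000955). Dusp28 rose by 0.57 in knockout (adjusted p = 0.00483) and 0.41 in wild-type cells (adjusted p = 0.0227), and Dusp12 fell in wild-type cells (-0.49, adjusted p = 0.0484), where the knockout value was -0.44 (0.0635). By genotype 0 of these 25 genes passed in either treatment, where 0.622% of all genes were called with curdlan and 1.42% untreated. With curdlan Dusp14 had -0.44 (adjusted p = 0.257) and Ssh2 -0.40 (0.27). Among Dusp7, Dusp8 and Dusp9 the largest differences with curdlan were 0.19 for Dusp7 (0.57) and 0.18 for Dusp8 (0.567).

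Other brakes on ERK signalling were tested in 13 genes, of which 3 rose and 1 fell with curdlan in knockout cells and 2 rose in wild-type cells (medians 0.03 in knockout and 0.06 in wild-type cells). These counts stand beside 22.5% of all genes called in either direction in knockout cells and 19.6% in wild-type cells. The Ras GTPase-activating protein gene Rasa2 rose by 0.58 in knockout (adjusted p = 0.000321) and 0.92 in wild-type cells (8.28e-06), and Spred1, which restrains Raf activation, by 0.39 in knockout (0.0017) and 0.46 in wild-type cells (0.000557). Spred3 rose in knockout cells (0.37, 0.0229; wild type 0.27, 0.0836), and Rasa1 fell there (-0.31, 0.00638; wild type -0.18, 0.0608). By genotype, Spry1 was the single gene of the 13 called, and it was lower in knockout cells. Over all genes, 0.622% were called by genotype with curdlan and 1.42% untreated. Spry1, a Sprouty inhibitor of growth factor signalling to ERK, gave 6.75, 6.63 and 6.42 in knockout cells with curdlan, against 7.52, 7.48 and 7.82 in wild-type cells with curdlan. It gave 6.24, 6.42 and 6.34 in untreated knockout cells, against 7.46, 7.69 and 7.64 in untreated wild-type cells. The groups did not overlap in either treatment, and the differences were -1.01 ± 0.11 with curdlan (SE, adjusted p = 0.00337) and -1.26 ± 0.11 untreated (adjusted p = 0.000906). Spry1 lies on chromosome 3 from 37639947 to 37644599, with 514 kb between it and Il2, the disrupted gene, at 37120713 to 37125954, and the effect of the disruption on neighbouring genes was not tested. Dusp5 lies on chromosome 19 and Dusp16 on chromosome 6, and the origin of their genotype differences was not tested.

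Genes of the kinases themselves moved in both directions with curdlan. The counts below stand beside 22.5% of all genes called in either direction in knockout cells and 19.6% in wild-type cells. Of 8 MAP kinase genes measured, Mapk14 (p38 alpha) fell in both genotypes (-0.39, adjusted p = 0.00342, in knockout and -0.53, adjusted p = 0.000456, in wild-type cells) and the other 7 did not pass. Of 6 MAP2K genes, Map2k1 (MEK1) rose by 0.73 in knockout (0.000295) and 0.77 in wild-type cells (0.000168), and Map2k6, a p38 kinase, fell in wild-type cells (-0.64, 0.00742; knockout -0.36, 0.079). Of 15 MAP3K and RAF genes 2 rose and 3 fell in each genotype. Map3k8 (Tpl2), which feeds ERK downstream of NF-kB signalling, rose by 0.40 in knockout (0.00393) and 0.51 in wild-type cells (0.000823), and Map3k14 (NIK) by 0.50 in each (0.0342 in knockout and 0.036 in wild-type cells), while Map3k4 fell by 0.36 in knockout (0.0262) and 0.32 in wild-type cells (0.0448) and Map3k6 in knockout cells (-0.29, 0.0239; wild type -0.12, 0.307). Of 7 kinases downstream, 1 rose and 2 fell in knockout cells and 2 rose and 1 fell in wild-type cells. Mapkapk2 (MK2), the main p38 substrate kinase, rose by 0.26 in knockout (0.0106) and 0.25 in wild-type cells (0.0125), Mknk1 fell by 0.41 in knockout (0.00224) and 0.49 in wild-type cells (0.000732), Mapkapk3 rose in wild-type cells (0.24, 0.0104; knockout 0.11, 0.165) and Rps6ka3 fell in knockout cells (-0.27, 0.02; wild type -0.14, 0.203). By genotype 0 of the genes of these 4 lists passed in either treatment, where 0.622% of all genes were called with curdlan and 1.42% untreated. Map3k14 had -0.57 with curdlan (adjusted p = 0.124) and -0.57 untreated (0.0993). In the average over both treatments, added after the data were seen, Map3k14 (-0.57, adjusted p = 0.00968) and Mknk2 (-0.19, adjusted p = 0.0301) were lower in the knockout. Mapk9 was higher there (0.19, adjusted p = 0.0424). These averaged calls stand beside 5.04% of all genes called in either direction. The fit took the arrays of an array pair as separate, and no array-pair block is given for these genes.

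Genes induced by ERK moved in both directions. Of 19, which include Spry2 and Spry4 from the list above, 4 rose and 2 fell in knockout cells and 3 rose and 1 fell in wild-type cells, with medians of 0.01 in knockout and 0.15 in wild-type cells, beside 9.29% of all genes called higher in knockout and 7.27% in wild-type cells. Hbegf, a ligand of the EGF receptor, rose by 0.83 in knockout (adjusted p = 8.22e-05) and 0.93 in wild-type cells (2.8e-05), and cyclin D1 (Ccnd1) by 0.92 in knockout (0.0317) and 1.00 in wild-type cells (0.0232). Etv5 fell by 0.59 in knockout (0.00283) and 0.62 in wild-type cells (0.00188), and Myc fell in knockout cells (-0.71, 0.00623; wild type -0.41, 0.0718). Of 7 genes for mRNA-binding proteins that MAP kinases regulate, Zfp36 (tristetraprolin) rose in wild-type cells (0.34, 0.00427; knockout 0.11, 0.224) and the other 6 did not pass in either genotype. By genotype 0 of the genes of these lists passed in either treatment, where 0.622% of all genes were called with curdlan and 1.42% untreated. Zfp36l1 had -0.51 with curdlan and -0.53 untreated (adjusted p = 0.114 and 0.0693). In the average over both treatments, Zfp36l1 was lower in the knockout (-0.52, adjusted p = 0.00713) and Hbegf higher (0.23, adjusted p = 0.0489). There too 5.04% of all genes were called in either direction, and no array-pair block is given for these 2 genes.

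**Figure D4:**
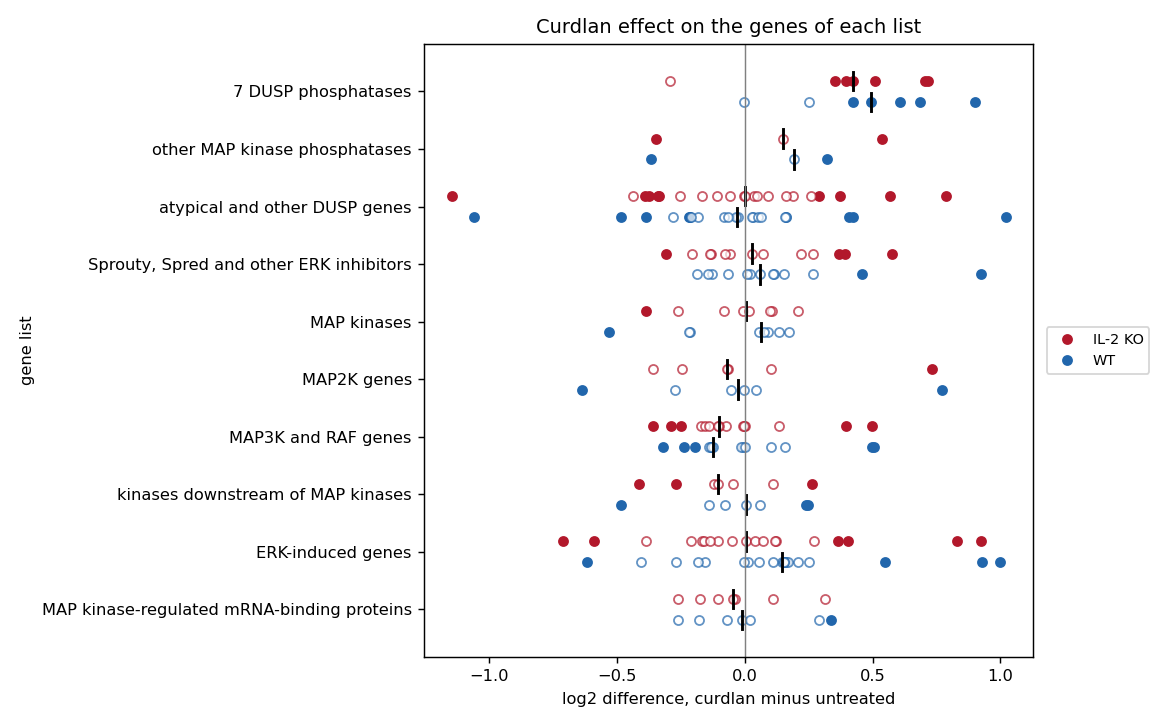
Log2 difference (horizontal axis, curdlan minus untreated) of every measured gene of each list (rows), for IL-2 knockout and wild-type cells, with filled points for genes past the threshold and black bars for the list median. The medians of the 7 phosphatase genes (0.42 and 0.49) lie to the right, and those of the other lists lie between -0.12 and 0.19.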

How the data were processed

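The authors deposited log2 values, 1 per probe set and array, made with RMA per the labels (background correction, normalisation between arrays and summary of probes). The version of RMA, and which arrays it was run on together, were not given in the sources used here. Of 34760 probe sets, 21640 carried 1 gene symbol in the platform annotation, 1321 several and 11799 none, and only the first were used. For 954 genes with several probe sets the one with the highest mean was taken. No dim gene was left out. Precision is limited by the number of arrays.

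A limma model (version 3.58.1, R 4.3.3) with a mean per group used the 12 arrays together and left 8 residual degrees of freedom, with Benjamini-Hochberg adjustment over 19937 genes in each contrast and a threshold of 0.05. SD is over 3 arrays, and SE and intervals are those of the fit. The fit was tested on simulated data. The genes, lists and rules were chosen with earlier results of these data known. Named were the 7 genes, the 3 genes most correlated with each, Il2, and for each list up to 4 called genes with the largest change (in a list without a call, up to 2 genes). Called markers, and the list genes called in the average over both treatments, were named after their values were seen.

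The replicate number was checked for pairing. After group means were removed, same-numbered arrays of 1 genotype correlated across genes between 0.37 and 0.60 and others between -0.48 and 0.06. Between genotypes, same-numbered untreated arrays correlated between 0.11 and 0.25 and other untreated arrays between -0.28 and 0.005. Same-numbered treated arrays correlated between -0.13 and 0.33 and other treated arrays between -0.30 and 0.21. The labels state no shared culture. The block is therefore given beside curdlan and untreated results where it changed a call. In all, 27 alternatives were run. Promoter windows and gene positions are from RefSeq, GRCm38.p6.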

Additional observations from a re-analysis of the deposited data

How the results depend on the processing

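Of 1099 values of the 7 phosphatase genes under the alternatives (42 results), 1039 kept direction and side of the threshold, 53 lost a call, 7 gained one and 0 turned a call round. The 1039 include results that were not called to begin with, such as those of the interaction for all 7 genes. Their share of the 1099 therefore does not measure how firm the calls are. Over all genes, the genotype calls with curdlan numbered 124, against 450 with the replicate number as a fixed replicate block and 15 in a fit of the arrays compared alone. Untreated they numbered 283, against 699 and 70 in those fits, and for both treatments averaged 1005, against 1621 with that block. Among the 7 genes, 2 passed by genotype with curdlan under that block (Dusp16 joined, adjusted p = 0.041). Whether the number pairs these arrays is not settled, since same-numbered and other treated arrays of the 2 genotypes correlated over overlapping ranges. In the fit of the arrays compared alone 0 passed in either treatment, and 1 passed in the average with array pair as a random block. The block changed the call of Dusp6 in knockout cells, as given above, and with a random array-pair block that of Dusp2 in wild-type cells.

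Leaving out an array or an array pair (1 or 2 of 12 arrays) gave 1079 to 5284 genes for curdlan in knockout cells, 1841 to 4011 for curdlan in wild-type cells, 18 to 299 for genotype with curdlan, 9 to 608 for genotype untreated, 325 to 1431 for the average and 0 to 3 for the interaction. It gave 1 to 6 of the 7 genes for curdlan in knockout cells and 3 to 6 in wild-type cells, 0 to 1 for genotype in either treatment and 1 to 2 for the average. The lowest counts for curdlan came without knockout array pair 1 (1079) and without wild-type array pair 1 (1841), and the lowest for genotype came without wild-type array pair 3 with curdlan (18), without knockout array pair 2 untreated (9) and without wild-type array pair 2 in the average (325). With arrays centred on their median, calls split into 1412 higher and 3120 lower for curdlan in knockout cells (1853 and 2628 as deposited), 95 and 174 for genotype untreated (46 and 237) and 552 and 552 for the average (296 and 709).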
